A study of Drosophila melanogaster with 2 samples.

Results

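The Hox genes of Drosophila melanogaster were examined for binding of Rotund (rn), a zinc finger protein that acts as a transcription factor, here fused to eGFP. The members are the 8 Hox genes lab, pb, Dfd, Scr, Antp, Ubx, abd-A and Abd-B, of 13945 protein-coding genes on the main chromosome arms. They were chosen by name and not by any measured value, though earlier results of these data were known. Chromatin from whole pupae of the rn-GFP strain was precipitated with an antibody against GFP and sequenced (ChIP-seq), in 2 biological replicates of 1 group. The pupae carried a transgene for the fusion protein, the pupal stage is recorded as unknown and the sex was not collected. No group without the transgene was analysed here, so no comparison between conditions was possible. Whole animals mix all tissues, so strong binding in few cells and weak binding in many cannot be told apart. Peaks do not report expression, and whether the members were transcribed in these pupae was not tested.

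Hox genes encode homeodomain transcription factors that give each body segment its identity along the head to tail axis. In the fly they lie in 2 clusters on arm 3R. The Antennapedia complex holds the 5 genes for head and anterior thorax (lab, pb, Dfd, Scr and Antp), and the bithorax complex holds the 3 genes for posterior thorax and abdomen (Ubx, abd-A and Abd-B). Their expression is known to be kept on by Trithorax group and off by Polycomb group proteins, and in pupae they shape adult structures such as mouthparts, legs, halteres and the abdomen. Rotund is known for patterning the tarsal part of the leg.

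A peak was given to a Hox gene when its summit lay in the gene body or within 20 kb of it. The authors' thresholded set over both replicates held 7 distinct peaks in these windows, of 3774 on the 6 arms. The deposited signal value of a peak is the authors' own measure of its strength, and it is not scaled between lists. The irreproducible discovery rate (IDR) is low for peaks that rank alike in a pair of call sets, and the thresholded sets reach an IDR of 0.01. The lists used were 4 thresholded ones (a set over both replicates, a conservative set and a set for each replicate) and the ranked lists behind them, which also hold weaker calls. Of the 7 peaks, 3 lay in introns of Antp and Abd-B, 2 in sequence between genes and 2 at the starts of neighbours that are not Hox genes. No thresholded peak lay within 500 bp of a start of any Hox gene. Of all protein-coding genes 12.1% had one there, so its absence from 8 genes does not set them apart.

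The 101 bp around the summit are shown for the 6 peaks that touch no annotated exon, since they hold all the called Hox sites inside gene bodies and between genes. The sequence is the plus strand of dm6, 5′ to 3′, from the RefSeq Release 6 genome. Capitals mark matches, on either strand, to 7 motifs that were searched: a run of adenines written as AAAAAAA, the short motif written as TTAAAA, the homeodomain core that reads TAATTA, the shorter homeodomain core that reads TTAAT, the site of Hox proteins with their cofactor Exd (TGATTNAT), the site of the Trl protein that reads GAGAG, and the core of the site of the Polycomb protein Pho that reads GCCAT. Matches can overlap each other.
Antp intron, 3R:6951187-6951287: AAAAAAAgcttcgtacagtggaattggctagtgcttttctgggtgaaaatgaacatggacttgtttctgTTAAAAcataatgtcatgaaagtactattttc
Antp intron, 3R:6914474-6914574: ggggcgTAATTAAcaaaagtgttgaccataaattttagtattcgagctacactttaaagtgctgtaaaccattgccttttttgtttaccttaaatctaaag
Abd-B intron, 3R:16948765-16948865: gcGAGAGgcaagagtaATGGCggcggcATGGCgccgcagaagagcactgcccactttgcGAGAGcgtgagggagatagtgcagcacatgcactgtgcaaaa
Beside abd-A, 3R:16798878-16798978: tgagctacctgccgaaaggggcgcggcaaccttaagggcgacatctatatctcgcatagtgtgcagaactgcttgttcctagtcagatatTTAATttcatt
Between Dfd and Scr, 3R:6818820-6818920: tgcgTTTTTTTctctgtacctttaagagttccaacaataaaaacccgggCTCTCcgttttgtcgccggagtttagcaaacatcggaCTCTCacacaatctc
Upstream of bcd, 3R:6759585-6759685: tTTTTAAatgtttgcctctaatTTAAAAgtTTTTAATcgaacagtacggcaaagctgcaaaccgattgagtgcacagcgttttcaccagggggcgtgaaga

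The 7 summits held different motifs. The short core TTAAT was found at 3 of the 7 and, in the same window of 101 bp, at 41.5% of all thresholded summits. The 6-mer TTAAAA was found at 2 (30.4% of all), the A run at 2 (17.7%), GAGAG at 2 (11.4%), GCCAT at 2 (13.2%) and TAATTA at 1 (8.90%). TGATTNAT was in none of these windows and in 2.78% of all. The Abd-B intron window shown above had the highest share of G and C, 62.7% of the central 51 bp, and held both GAGAG and GCCAT. Over the 7 summits this share was 45.4% ± 9.23 (SD, n = 7 peaks, range 35.3% to 62.7%), beside 34.3% ± 12.1 over the 3774 thresholded summits. The medians were 41.2% and 31.4%.

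**Figure D1:**
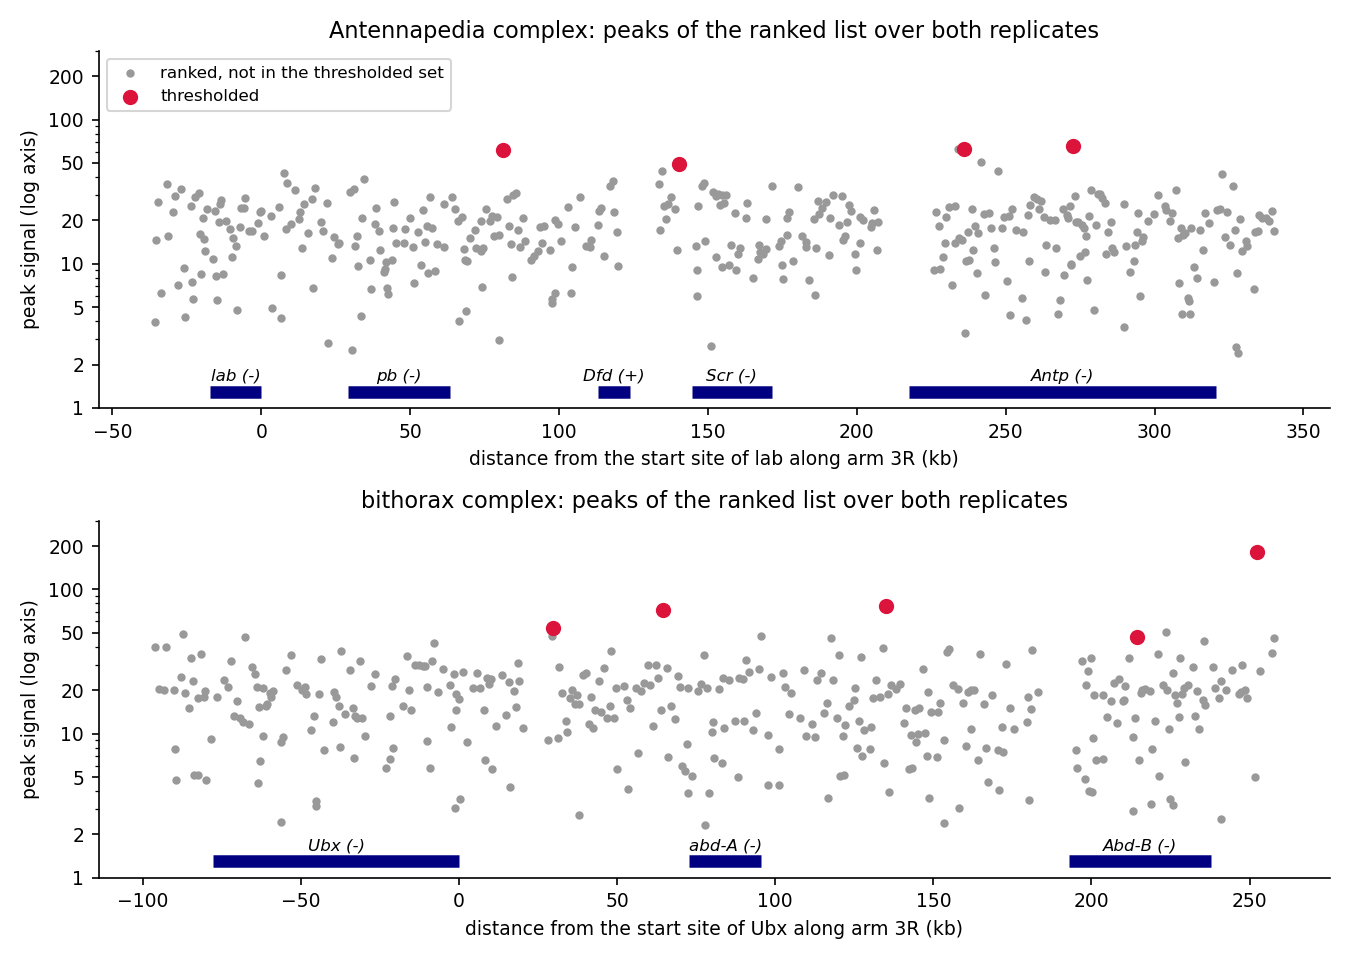
Signal (log axis) of each peak in the ranked list over both replicates, by distance in kb along arm 3R from the start of lab (top) or Ubx (bottom), with thresholded peaks in red and Hox gene bodies as bars with their strand. The thresholded peaks stand at 47.0 to 180.6 among ranked peaks that reach all 8 genes, and the bodies of lab, pb, Dfd, Scr, Ubx and abd-A hold none in red.

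In the Antennapedia complex, lab (FBgn0002522, 3R:6661427-6678590, minus strand), which specifies part of the head and midgut, had no thresholded peak in its window in any of the 4 thresholded lists. Its strongest ranked peak had a signal of 42.9 over both replicates, with 26.6 in replicate 1 and 15.3 in replicate 2. That peak lay 7723 bp outside the gene, at the start of the cuticle protein gene Ccp84Ag, and its IDR was 0.249. The call thus fell short of the threshold in a window that held 66 ranked peaks.

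The gene pb (FBgn0051481, 3R:6707800-6742063, minus strand), which directs adult mouthpart identity, had 1 thresholded peak, 17.6 kb upstream of its body. This peak, at 3R:6759487-6759782, lay 169 bp upstream of bcd, the maternal gene that organises the anterior embryo. Its signal was 61.4 over both replicates, 37.3 in replicate 1 and 26.5 in replicate 2, and neither replicate's own thresholded set held it. Within pb itself the strongest ranked peak, in an intron at 3R:6713115-6713410, had 38.7 over both, 21.5 in replicate 1 and 16.2 in replicate 2, with an IDR of 0.0932.

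Dfd (FBgn0000439, 3R:6791836-6802428, plus strand), which specifies the mandibular and maxillary segments, and Scr (FBgn0003339, 3R:6823120-6849981, minus strand), which specifies the labial and anterior thoracic segments, shared 1 thresholded peak. It stood between the genes at 3R:6818722-6819017, 16.4 kb from Dfd, 4.25 kb from Scr and 1024 bp from the nearest annotated start, that of a lysine tRNA gene. Its signal was 49.2 over both replicates, 22.4 in replicate 1 and 26.4 in replicate 2. It ranked 3522 of 3777, and neither the conservative set nor either replicate's own set held it. The bodies of Dfd and Scr held no thresholded peak. The strongest ranked peak inside Dfd had a signal of 37.2 over both replicates, 15.9 in replicate 1 and 25.4 in replicate 2. The strongest inside Scr had 36.05 over both and 23.3 in replicate 2, and replicate 1's list held no peak that overlaps it.

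Antp (FBgn0260642, 3R:6896253-6999228, minus strand), which promotes leg over antennal identity in the thorax, is the longest member at 103 kb and was the only one with 2 thresholded peaks inside its body. The peak at 3R:6951089-6951384 had a signal of 65.9 over both replicates, 29.3 in replicate 1 and 33.3 in replicate 2, and ranked 2489. It lay in an intron, 7.13 kb downstream of a start that Antp shares with the overlapping gene CG46458, and replicate 2's own set also held it. The peak at 3R:6914376-6914671 had a signal of 62.8 over both, 32.2 in replicate 1 and 25.9 in replicate 2, and neither replicate's own set held it. The bodies of Antp and CG46458 overlap at both peaks, so the peaks cannot be assigned to Antp alone. A further intronic peak nearby, at 3R:6912395-6912690, had a signal of 62.8 (29.0 and 33.4 in the replicates). It was called in the conservative set and, at an IDR of 0.0187 in the ranked list, missed the thresholded set.

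In the bithorax complex, Ubx (FBgn0003944, 3R:16656623-16734426, minus strand), which makes the haltere differ from the wing, had no thresholded peak in its 118 kb window in any of the 4 thresholded lists. The strongest ranked peak inside Ubx was intronic, at 3R:16666424-16666719, with 47.1 over both replicates, 25.6 in replicate 1 and 20.8 in replicate 2, and an IDR of 0.168. The strongest in the window, 9509 bp outside the gene at the start of CG10324, reached 48.8 over both and 30.2 in replicate 2, while replicate 1's list held no peak that overlaps it. Ubx and lab were the only members with no thresholded peak.

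The gene abd-A (FBgn0000014, 3R:16807214-16830049, minus strand), which specifies anterior and middle abdominal segments, had 1 thresholded peak, 8286 bp beyond its 3′ end at 3R:16798780-16799075. Its signal was 72.0 over both replicates, 36.4 in replicate 1 and 43.0 in replicate 2. This was 1 of 2 peaks in the Hox windows that every one of the 4 thresholded lists held, and its IDR was 0.000727. The nearest annotated start, 1672 bp away, was that of the noncoding gene lncRNA:CR45750. Within abd-A the strongest ranked peak was at its promoter, with 47.3 over both, 22.8 and 26.7 in replicates 1 and 2, and an IDR of 0.0234.

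Abd-B (FBgn0000015, 3R:16927212-16972236, minus strand), which specifies the posterior abdomen and genitalia, had 2 thresholded peaks in its window. The stronger, at 3R:16986498-16986793, had the highest signal of all Hox windows, with 180.6 over both replicates, 108 in replicate 1 and 76.4 in replicate 2. It ranked 430 of 3777 and all 4 thresholded lists held it, but it stood 14.4 kb upstream of Abd-B, within CG18622 and 204 bp from a start of that gene. The weaker, in an Abd-B intron at 3R:16948667-16948962, had 47.0 over both, 12.9 in replicate 1 and 39.8 in replicate 2. The replicates differed there: the peak ranked 1821 of 62374 in replicate 2 and 35132 of 68539 in replicate 1. The conservative set held another Abd-B intronic peak instead, at 3R:16958007-16958302, with 50.7 over both and 27.9 and 27.8 in replicates 1 and 2.

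**Figure D2:**
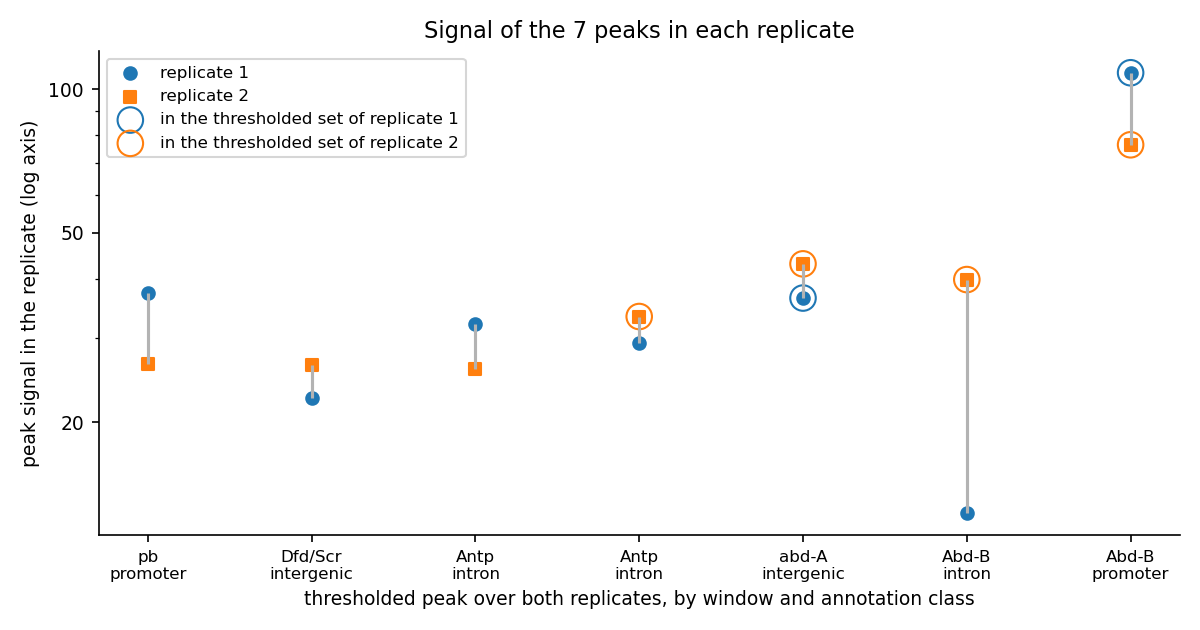
Signal (log axis) of the 7 thresholded peaks in the ranked lists of replicate 1 (circles) and replicate 2 (squares), with rings where that replicate's own thresholded set also held the peak. The abd-A intergenic peak and the peak upstream of Abd-B are ringed in both replicates, and the Abd-B intronic peak stands at 12.9 in replicate 1 and 39.8 in replicate 2.

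Further thresholded peaks stood inside the bithorax complex but more than 20 kb from any Hox body, in introns of noncoding RNA genes that arise from its regulatory DNA. The peak in lncRNA:bxd, 29.8 kb from Ubx at 3R:16764110-16764405, had a signal of 54.0 over both replicates, 31.2 in replicate 1 and 23.0 in replicate 2. The peak in lncRNA:iab8, 39.3 kb from abd-A at 3R:16869201-16869496, also lay within the overlapping gene MSAmiP. Its signal was 77.3 over both, 38.0 in replicate 1 and 30.2 in replicate 2. With the peaks in lncRNA:bxd and lncRNA:iab8, the bithorax span of 356 kb held 5 thresholded peaks and the Antennapedia span of 378 kb held 4. These are 1.41 and 1.06 per 100 kb, beside 2.76 per 100 kb over arm 3R.

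At their own starts the Hox genes had ranked but no thresholded peaks. Of the 8 genes 7 had a ranked peak within 500 bp of a start, beside 75.4% of the other protein-coding genes. A thresholded one was found at 0 of 8, beside 12.1% of all protein-coding genes. With 8 genes, both counts are close to these shares. The best own-start signal was 47.3 at abd-A, followed by 34.6 at Scr (25.8 in replicate 1 and 20.4 in replicate 2) and 33.6 at Abd-B (14.3 and 15.9). It was 23.5 at Antp, 23.3 at lab, 23.2 at Dfd and 17.5 at Ubx, and pb had no ranked peak there. The IDRs of these weaker peaks were high, at 0.669 for Antp, 0.425 for lab, 0.471 for Dfd and 0.871 for Ubx. Replicate 2's ranked list held no peak that overlaps those of lab and Ubx. The median over the 7 was 23.5, beside 24.99 (quartiles 17.4 and 39.0) over the other genes with such a peak. The Hox starts thus lay in the middle of the range for starts in general.

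Counted over bodies and flanks together, thresholded peaks were sparser at most Hox genes than at the typical gene of similar length. Over the union of the 8 windows, 627 kb, there were 1.12 per 100 kb, beside 2.82 over the 6 arms. Each Hox gene was also set beside the 200 other protein-coding genes nearest to it in body length, with the same window, as a description with no test. All 8 Hox genes lay below the median density of those genes, Dfd and Abd-B only through the length of their windows, since their counts of 1 and 2 peaks equalled the median counts. The values per 100 kb were 0 for lab (median 3.46), 1.35 for pb (2.67), 1.98 for Dfd (2.00) and 1.496 for Scr (3.12). They were 1.40 for Antp (2.59), 0 for Ubx (2.82), 1.59 for abd-A (3.15) and 2.35 for Abd-B (2.42). The spread among genes of similar length was wide: 6 Hox genes lay between the lower quartile and the median, and lab and Ubx lay below the lower quartile (1.71 and 0.858). Windows of neighbouring members overlap, so these 8 values are not independent. In bodies alone Antp (1.94 against 1.498 per 100 kb) and Abd-B (2.22 against 2.05) lay above the median, Ubx (0 against 1.54) lay below it, and the other 5 were at 0, as was their median.

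As a count of genes the members did not stand apart. A thresholded peak was found in the windows of 6 of 8 Hox genes, and of 69.2% of all protein-coding genes. Among genes of similar length the share was 76% for lab, 74.5% for pb, 71% for Dfd, 80% for Scr, 77% for Antp and for Ubx, 78.5% for abd-A and 74.5% for Abd-B. In gene bodies alone, 2 of 8 Hox genes had a peak, beside 9.97% of all protein-coding genes, whose median length is 2.17 kb. For genes of similar length that share was 36% for lab, 48% for pb, 31% for Dfd, 46.5% for Scr, 59.5% for Antp, 55% for Ubx, 42.5% for abd-A and 52% for Abd-B. Genes of similar length with many peaks included sbb, with 23 in its window, beside Antp and Ubx, Raf with 14 beside Abd-B, hng3 with 13 beside lab, and kibra and aop with 12 each beside Scr and abd-A.

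The density of gene starts in the windows varied among the members. The windows of Dfd, Scr, Antp and abd-A held 1.40 to 3.18 starts of protein-coding genes per 100 kb, below the lower quartiles for genes of similar length, while those of lab and pb held 21.0 and 14.8, above the upper quartiles. Those of Ubx (7.64, median 7.01) and Abd-B (8.23, median 9.52) lay within the quartiles. With promoter peaks left out, 6 of 8 Hox genes lay below the median of genes of similar length, and Dfd (1.98 against 0) and Scr (1.496 against 1.483) lay above. Of the 6, abd-A (1.591 against 1.593) and Abd-B (1.18 against 1.21) lay almost at the median, Antp had 1.40 against 1.66, and lab, pb and Ubx had 0 against 1.73, 1.37 and 1.67. The lower quartile on this measure was 0 for each set of similar length, so no gene could lie below it. The part of start density in the lower peak density of the Hox windows was not tested.

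**Figure D3:**
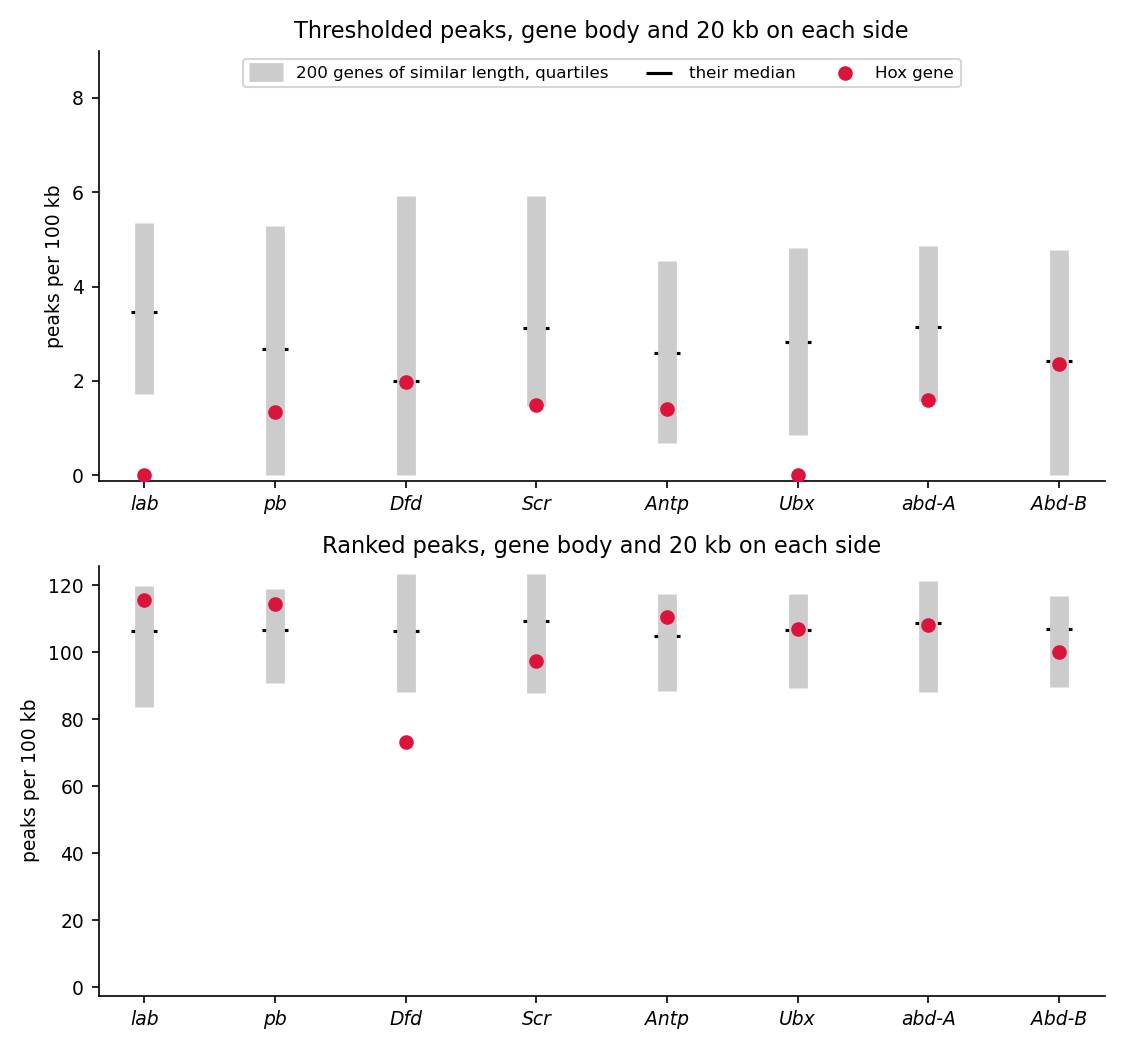
Thresholded (top) and ranked (bottom) peaks per 100 kb in the window of each Hox gene (red), with the quartiles (grey) and median (black) of the 200 genes nearest in length. In the top panel the 8 Hox genes lie below the medians, with lab and Ubx at 0, and in the bottom panel 7 of 8 lie within the quartiles and Dfd lies under them at 73.1.

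Ranked peaks, which include all weaker calls, were not sparser around the Hox genes than elsewhere. The union of the windows held 669, or 107 per 100 kb, beside 94.3 over the arms and 101 over arm 3R. By gene, 4 Hox genes lay above and 4 below the median of genes of similar length, from 73.1 at Dfd (median 106) to 115.5 at lab (106). Of the 50.6 kb window of Dfd, 13.9 kb lay in a stretch with no ranked peak at all, and the part of read placement or of rows not analysed here in that stretch was not tested. The median ranked signal was 17.4 in the Hox windows and 16.8 over the arms. At the upper end, 0.897% of ranked peaks in Hox windows, 6 of 669, reached the lower quartile of thresholded signal (60.1). Over the arms this share was 2.36%. All of the 6 but the Antp peak at 3R:6912395-6912690 are thresholded peaks described above, so this share is not a result separate from the thresholded counts.

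The strongest ranked peak of a window was below the median of genes of similar length, among those with a ranked peak, for 7 of 8 Hox genes in the list over both replicates, and for the same number in each replicate's list. Over both replicates it was 42.9 for lab (median 111), 61.4 for pb (105), 49.2 for Dfd (89.1) and 49.2 for Scr (109, the same peak). It was 65.9 for Antp (116), 48.8 for Ubx (116) and 72.0 for abd-A (95.9). The exception was Abd-B with 180.6 (median 108, upper quartile 175), through the peak within CG18622. In the replicates its strongest peak had 108 (median 55.1, upper quartile 90.2) and 76.4 (median 50.1, upper quartile 81.3). Over both replicates 4 members, lab, Dfd, Scr and Ubx, lay below the lower quartile, while pb (lower quartile 55.5), Antp (54.4) and abd-A (56.6) lay between it and the median. Except at lab and Ubx, the strongest ranked peak over both replicates was a thresholded peak described above. For those members this measure is thus not separate from the thresholded peaks.

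**Figure D4:**
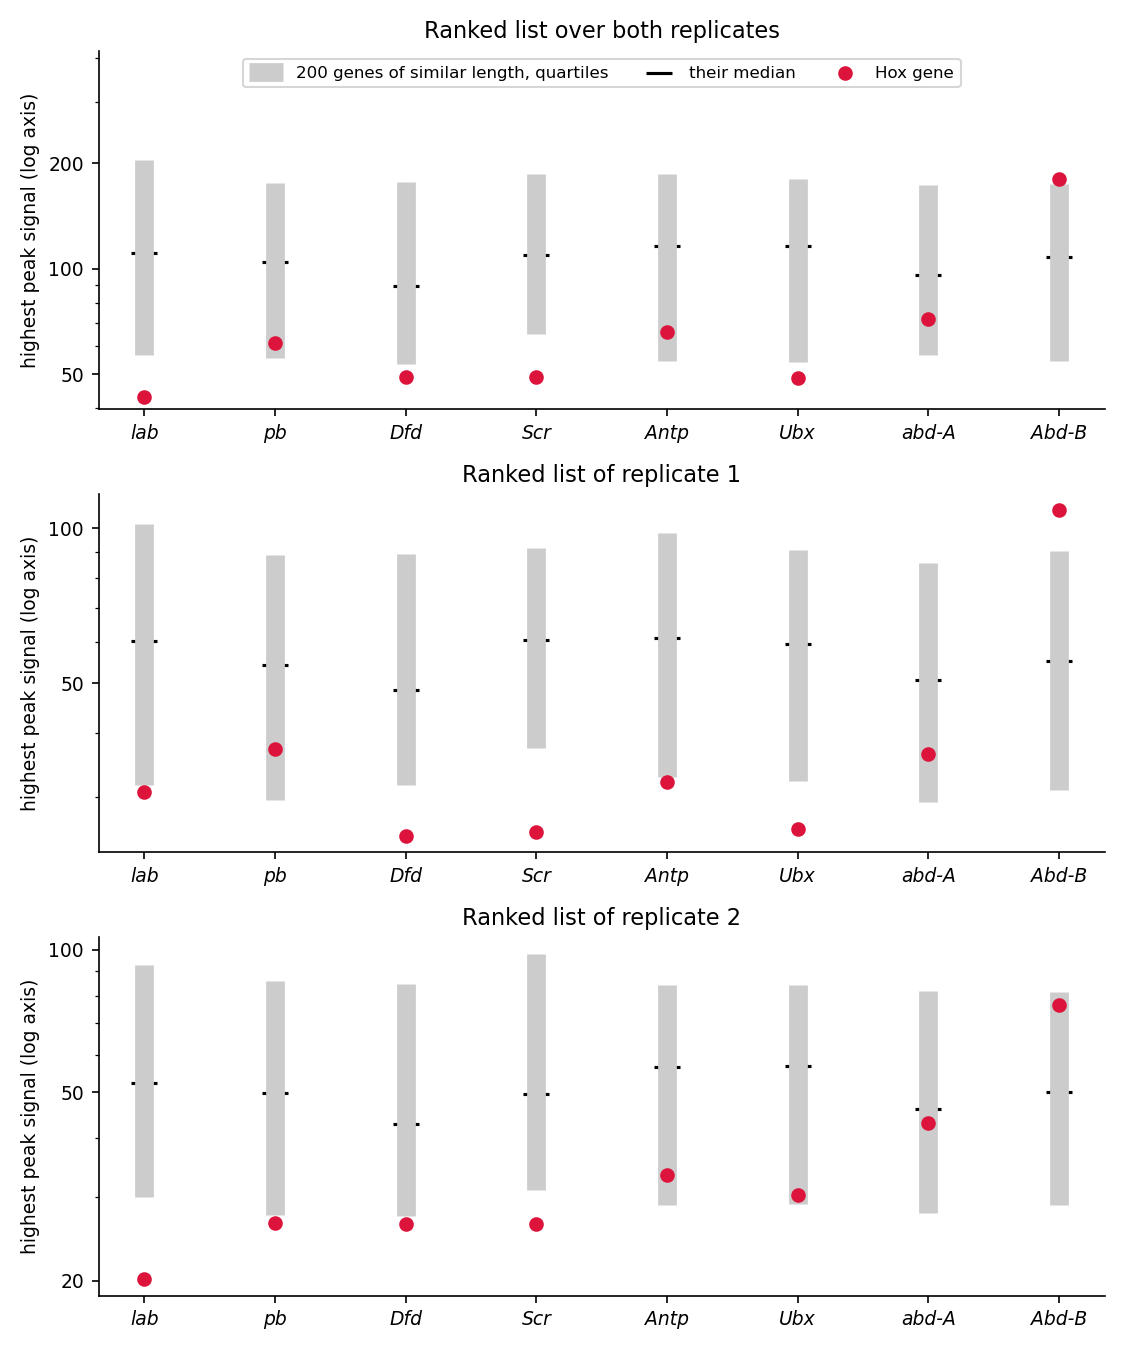
Highest peak signal (log axis) in the window of each Hox gene (red) in the ranked lists over both replicates and of replicates 1 and 2, with the quartiles (grey) and median (black) of the 200 genes nearest in length. In each panel Abd-B lies above the median and the other 7 lie below it.

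Stretches without thresholded peaks were long at some members. The anterior part of the Antennapedia complex, with lab and pb, lay in a stretch of 336 kb between summits, which ranked 22 of 3780 on the arms. It ran from 3R:6424115 to 3R:6759635, while the body of lab, the first Hox gene in it, begins only at 3R:6661427. A large part of its length thus lay outside the complex. Stretches at least that long made up 17.8% of the arms, and the median stretch was 12.3 kb. Ubx lay in a stretch of 212 kb (rank 71), and 27.3% of the arms lay in stretches at least as long. That stretch ran from 3R:16551792 to 3R:16764258 and the Ubx body begins at 3R:16656623, so a large part of it also lay outside the complex. For the other 5 members the longest stretch that meets the body was 59.2 kb (Dfd, rank 554) to 116 kb (Antp, rank 244). These were longer than the median stretch, but 65.8% and 47.1% of the arms lay in stretches at least as long. By share of sequence they were thus not unusual.

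Replicate 1's own thresholded set held 2 peaks in the Hox windows and replicate 2's held 4. Both peaks of replicate 1 overlapped a peak of replicate 2, beside 66.3% over the arms, while 2 of 4 peaks of replicate 2 overlapped a peak of replicate 1, beside 74.3% over the arms. The peak upstream of Abd-B was the strongest of the windows in both replicates. Below it the orders differed: the peak upstream of bcd was slightly above that of abd-A in replicate 1 (37.3 and 36.4) and well below it in replicate 2 (26.5 and 43.0). These sets gave a peak to 2 and 3 Hox genes, beside 57.1% and 54.4% of all protein-coding genes, while the conservative set gave one to 4, beside 68.2%. In the ranked lists, 180 of 363 replicate 1 peaks in Hox windows (49.6%, 95% exact binomial interval 44.3 to 54.9) met a replicate 2 peak, beside 48.4% over the arms, and 168 of 299 replicate 2 peaks (56.2%, 50.4 to 61.9) met a replicate 1 peak, beside 51.1%. The read depth of the libraries is unknown, and the interval covers counting error over peaks only.

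Genes that act with or on the Hox genes were read with the same window of 20 kb, beside 69.2% of all protein-coding genes. Among Trithorax group genes 12 of 14 had a thresholded peak in the window and 9 in the body, and among Polycomb group genes 15 of 19 and 6. A body peak was found in 9.97% of all protein-coding genes, but those have a median length of 2.17 kb, beside 10.6 kb and 7.56 kb for these lists, and lists were not matched on length. The strongest body peaks were in osa (signal 632), a subunit of a chromatin remodelling complex, in ph-p (621), a subunit of a Polycomb complex, in Trl (436), which binds GAGAG, and in Psc (394). Median window densities were 3.98 and 4.42 per 100 kb for these lists, 1.45 for the Hox genes and 2.42 for all protein-coding genes. Some Polycomb group genes shared peaks. The windows of ph-p and ph-d had the same strongest ranked signal (621), as did those of phol and Jarid2 (700). Genes of a list are thus not independent. Of the Hox cofactors and zinc finger partners, 3 of 7 had a peak in the window. The gene hth, which brings Exd into the nucleus, had 8 in its body of 132008 bp (strongest 101). The much shorter exd, of 4042 bp, had none, so these counts cannot be compared directly. The gene hth is also in the homeobox list.

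The remaining lists were read in the same way, and the values named are those of the strongest peak in the gene body. Homeobox genes outside the complexes had a window peak in 26 of 41 cases and a body peak in 5 (12.2%, beside 9.97% of all protein-coding genes), with otp (117) and inv (108) strongest and a median of 1.80 per 100 kb. The other homeobox genes of the Antennapedia complex (ftz, zen, zen2 and bcd) had a window peak in 3 of 4 cases, all through the peak upstream of bcd. Embryonic regulators of Hox genes had 7 of 15, with hb strongest (155 at its promoter). Insulator protein genes had 6 of 11, led by mod(mdg4) (155), and Hox target genes 7 of 10, led by dpp (304) and bab1 (122). For scale, rn itself had 7 thresholded peaks in its window, or 9.09 per 100 kb. The fusion protein is made from an insertion that targets rn, and its part in those peaks was not tested.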

How the data were processed

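Peak lists from ChIP-seq of 2 replicates were used as deposited by the authors, on dm6 per the labels. The deposited signal of each peak is the authors' and is not scaled between lists. The deposited score is the IDR rescaled by the authors to at most 1000, with 830 for an IDR of 0.01, and −log10 of the IDR stands in the deposited ranked lists. The deposited distance of the summit from the peak start gave its position, 1-based. The software for alignment and for peak calling is not given in the sources used here, and read depth is unknown. The control experiment that the labels name was not analysed here. Single-replicate values come from each replicate's ranked list, as the strongest peak that overlaps by at least 1 bp.

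Gene models were those of Ensembl release 115 (BDGP 6.54) without transposable elements, and sequences came from the RefSeq Release 6 genome. No peak ended beyond its arm. The 3 of 3777 thresholded peaks off the 6 arms were left out. Promoter means within 500 bp of a transcript start. Named genes were the members, genes holding or nearest to a peak in a Hox window, the gene of similar length with the most peaks, up to 4 genes with the strongest body peak per list, and rn; the genes at the peaks of weaker rank and in the spans were named after their values were seen. The members, lists and motifs were chosen with earlier results of these data known. List members without a match by symbol are not analysed here. Window counting was tested on simulated data. With 1 group no test was run. Alternatives were other peak sets, windows, an IDR of 0.001, promoter widths and motif windows. The software was matplotlib 3.10.9, scipy 1.17.1, pandas 2.3.3 and numpy 2.4.6 under Python 3.11.15.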

Additional observations from a re-analysis of the deposited data

How the results depend on the processing

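The counts rest on few peaks, and most settings that take fewer peaks or less sequence lower them. Of the alternatives for the main results, 20 stayed near the value reported and 23 moved. This sorting was loose. It counted as near a fall from 6 to 4 Hox genes with a peak in the conservative set. A median of 1.5 peaks per gene with 50 kb of flank, in place of 1, also counted as near. Leaving out a replicate gave 2 to 3 Hox genes with a peak in place of 6, 2 to 4 peaks in place of 7, 0.319 to 0.638 per 100 kb in place of 1.12, a median of 0 per gene in place of 1, and 299 to 363 ranked peaks in place of 669. An IDR of 0.001 left 2 genes, 2 peaks, 0.319 per 100 kb and a median of 0. With 5 kb of flank there were 3 genes, 4 peaks and a median of 0, and in the body alone 2 genes, 3 peaks, 0.889 per 100 kb and a median of 0. The conservative set gave 4 genes, a median of 0.5 and again 7 peaks. The share of all protein-coding genes with a peak, 69.2% as reported, was lower in each of these settings too. It was 57.1% with replicate 1 alone, 54.4% with replicate 2 alone and 54.8% at an IDR of 0.001. With 5 kb of flank it was 37.1%, in the body alone 9.97% and in the conservative set 68.2%. The lists also shrank over the arms, from 3774 peaks to 2375, 2112 and 2110 for each replicate alone and the stricter IDR. Without genes that have a peak at their own start, the median density of genes of similar length was 1.80 in place of 2.75. Of the Hox genes, 7 lay below the median of their own comparison genes in place of 8. Leaving out genes for having a thresholded peak lowers this density by itself, so nothing is concluded from the fall. The second ranked list and the single-replicate ranked lists were added after the data were examined. No paired analysis was possible because there is 1 group.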

Other observations

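The ranked list held long stretches with no peak of any strength at 3 Hox genes, chosen after their values were seen. A stretch of 13.9 kb covered the 3′ part of Dfd and the microRNA gene mir-10, and it was 13.6 kb and 15.1 kb long in replicates 1 and 2. A stretch of 18.7 kb covered the 3′ end of Antp, and it was 17.6 kb and 18.7 kb long in the replicates. A stretch of 11.9 kb covered the 3′ end of Abd-B. In replicate 2 it was 16.9 kb, and replicate 1 had none of 10 kb or more there. The median distance between ranked summits was 680 bp, and 1135 of 126179 distances (0.900%) on the arms were 10 kb or more, which took up 17.5% of the sequence. The arms held 8.48 such stretches per Mb, beside these 3 in the complex spans of 378 kb and 356 kb. Stretches of this length thus do not set the Hox genes apart. The reference sequence of these stretches held 0 unknown bases. The part of read placement, or of rows not analysed here, in these stretches was not tested.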
